A study of Mus musculus with 12 samples.

Results

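The 9 genes described here encode the channels that release calcium from the endoplasmic or sarcoplasmic reticulum, the pumps that refill that store, and a large-pore channel of the plasma membrane. They are the ryanodine receptors Ryr1, Ryr2 and Ryr3, the inositol trisphosphate (IP3) receptors Itpr1, Itpr2 and Itpr3, the SERCA calcium pumps Atp2a1 and Atp2a2, and the pannexin Panx1, out of 55385 genes in the count tables. The members were chosen by measured values, the fall of Ryr3 and the rise of Panx1 in the libraries labelled Keap1 knockout. The knockout values of the 9 genes are therefore given as a description, without p-values. Where calls of that comparison are counted, they are no support for a change in these genes.

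RNA was sequenced from satellite cells, which are the stem cells that build and repair skeletal muscle. They came from hindlimb muscle of mice of the C57BL/6J strain and were frozen straight after isolation. There were 4 groups of 3 libraries each: females and males whose genotype the labels write as "Keap1 heterogeneous", shortened to Hetz in the titles and read here as heterozygous (Het), and females and males labelled Keap1 knockout (KO). Keap1 encodes the protein that marks the transcription factor NRF2 for degradation, and the stated question was why this pathway acts on these cells differently in the sexes. The labels used here give neither the age of the mice nor the way and the cells in which Keap1 was deleted, and on this reading the controls also carry 1 altered Keap1 allele.

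In muscle, calcium leaves the reticulum through ryanodine receptors, which are opened by the voltage sensor of the membrane or by calcium itself, and through IP3 receptors, which are opened by IP3 made by phospholipase C. SERCA pumps return the calcium to the store at the cost of ATP. PANX1 forms channels that let ATP and other small molecules out of the cell, where ATP acts on purinergic receptors. In myofibres RYR1 and SERCA1 (Atp2a1) carry the release and uptake of contraction, whereas SERCA2 (Atp2a2) serves slow fibres, the heart and the store of most other cells.

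Libraries held 13042039 to 19273245 counted fragments, and levels are given as counts scaled to library size (CPM, counts per 1000000 counts of the library) after normalization over the 12 libraries. A gene without a count in a library is bounded at 3 counts, which is 0.144 to 0.237 CPM, and this floor covers counting error only. Satellite cell markers (12 genes, summed) lay at 12782 to 14226 CPM in Het females, 8583 to 10975 in KO females, 17484 to 20581 in male Het and 18769 to 20114 in male KO, so the labelled cell type was present in each library. Markers of other muscle cells were present too, among them fibro-adipogenic progenitors at 2890 to 7081 CPM. Keap1 itself, counted over all its exons, stood at 8.19 ± 1.21 CPM in female Het and 11.9 ± 0.923 in female KO, and at 7.80 ± 2.36 and 7.30 ± 0.797 in males (SD, n = 3). A count over all exons does not check a deletion of part of the gene, so the libraries are called KO as labelled. Exons of Gm16754 cover 10.9% of the exonic bases of Keap1, so its level is uncertain too. Nfe2l2, which encodes NRF2, lay between 361 and 499.7 CPM in the 12 libraries.

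Set against each other per kilobase of exon, the 9 genes spanned a wide range of levels. Atp2a2 was the most abundant at 51.8 ± 6.92 CPM per kb over the 12 libraries (SD), and its range did not meet that of any other of these genes. Next came Atp2a1 at 8.05 ± 6.27, Panx1 at 4.60 ± 3.17 and Itpr2 at 4.30 ± 1.04 CPM per kb, whose ranges overlapped from neighbour to neighbour. Itpr1 followed at 2.05 ± 0.327 CPM per kb, apart from both its neighbours. Ryr3 at 0.493 ± 0.387 and Itpr3 at 0.463 ± 0.156 CPM per kb overlapped, Ryr1 stood below them at 0.119 ± 0.0475, although the ranges of Ryr1 and Ryr3 crossed, and Ryr2 was close to 0. In these satellite cell libraries the transcripts of the IP3 receptors, summed, were thus more abundant per length than those of the ryanodine receptors in each group, with 5.60 against 0.433 CPM per kb in female Het and 7.39 against 1.17 in male Het.

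**Figure D1:**
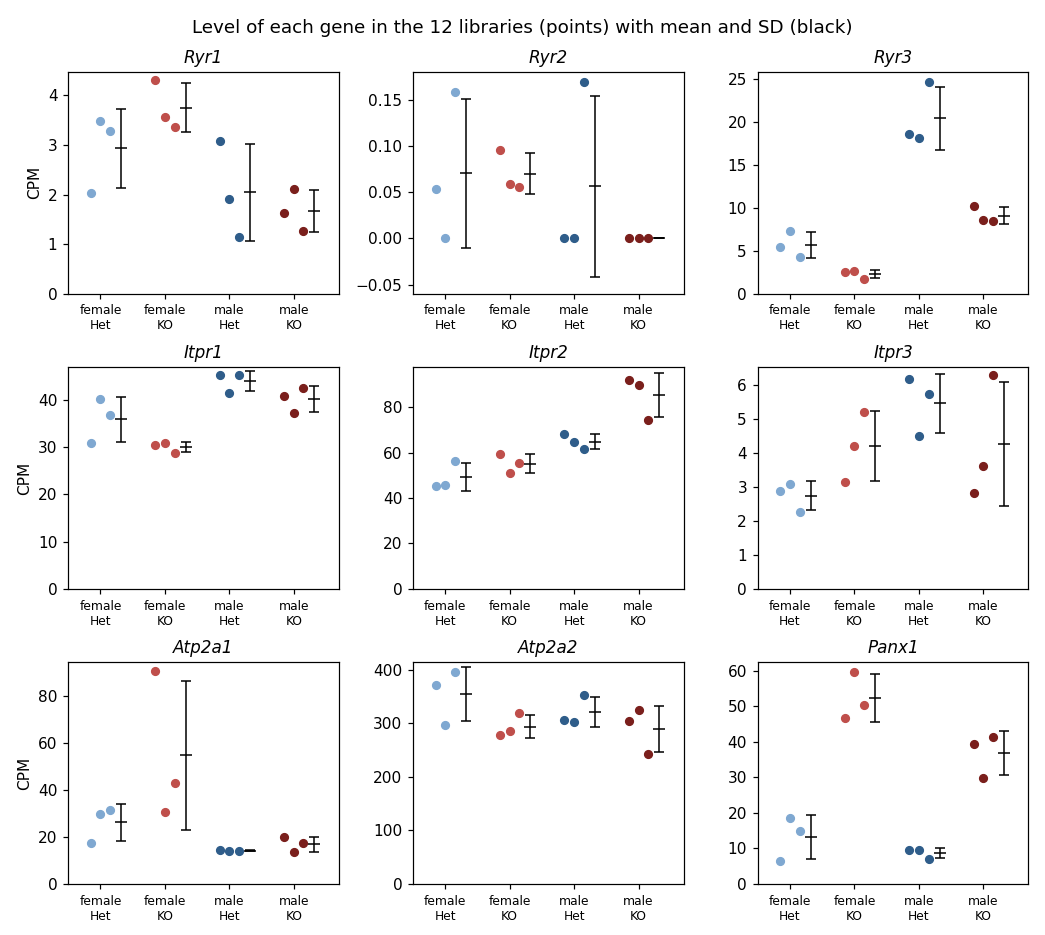
CPM (vertical axes, linear) of the 9 genes in the 12 libraries, 1 point per animal, with the mean and SD of each group of 3 in black. The axes of the genes with counts throughout start at 0. Ryr3 is lower and Panx1 higher in the KO points of both sexes, Ryr3 is higher in males, and a single female KO library carries 90.4 CPM of Atp2a1.

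Among the ryanodine receptors Ryr3, the isoform found at lower levels in many tissues and in developing muscle (chromosome 2, 112631355 to 113217096, minus strand, GRCm38), stood at 5.39, 7.26 and 4.24 CPM in female Het and at 2.49, 2.68 and 1.74 CPM in female KO. Male Het libraries held 18.5, 18.1 and 24.7 CPM, and male KO libraries 10.2, 8.54 and 8.51 CPM. Each KO library lay below each Het library of the same sex. On the log2 scale the KO level was lower by an estimate of -1.29 ± 0.297 in females and -1.17 ± 0.190 in males (SE, edgeR), that is 2.45-fold and 2.24-fold lower. These are values of the contrast that chose the gene. With bulk RNA, fewer cells that contain a transcript and less of it per cell cannot be told apart.

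The male level of Ryr3 was far above the female level in both genotypes, which the choice of the genes did not use. Male Het libraries held 20.4 ± 3.68 CPM against 5.63 ± 1.52 in female Het, 3.62-fold more (adjusted p = 0.000127, edgeR quasi-likelihood test), and male KO libraries held 9.09 ± 0.975 CPM against 2.30 ± 0.496 in female KO, 3.93-fold more (adjusted p = 5.33e-05, edgeR; SD, n = 3). All 3 male libraries lay above all 3 female libraries in each genotype, and even the male KO libraries lay above the female Het libraries. The higher male level passed the threshold, an adjusted p under 0.05 over all genes tested, in all 10 alternative analyses of each genotype (RLE size factors, DESeq2, limma voom, no filter on low counts, and each of 6 libraries left out), with folds from 3.21 to 4.23 in Het and from 3.51 to 4.26 in KO. The male minus female difference of the KO changes of Ryr3 was 0.12 on the log2 scale, with a 95% interval from -0.57 to 0.81, so a difference of moderate size in either direction was not detectable. Females and males were deposited as separate count tables, and sex cannot be told apart from whatever else differed between those tables.

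Satellite cell markers moved with part of this pattern. Their sum was lower in female KO than in female Het. There 3 of 12 markers fell and 0 rose (edgeR, adjusted p under 0.05), beside 2.27% of all genes past the threshold. In males the KO and Het sums overlapped, whereas Ryr3 was 2.24-fold lower in KO. Of 12 markers 1 was lower and 0 were higher in male KO, beside 0.861% of all genes. Between the sexes, the male Het sum of 17484 to 20581 CPM lay above the female sum of 12782 to 14226 CPM. Of 12 markers 1 was higher and 0 were lower in male Het, close to the 10.2% of all genes past the threshold. In KO the male sum of 18769 to 20114 CPM lay above the female sum of 8583 to 10975 CPM. Here 8 of 12 markers were higher and 1 lower, beside 20.4% of all genes. The part of the marker level in the Ryr3 values was not tested.

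Ryr1, the release channel of skeletal muscle contraction (chromosome 7, 29003344 to 29125179), was low throughout. It stood at 2.03, 3.48 and 3.28 CPM in female Het, 4.31, 3.57 and 3.37 in female KO, 3.09, 1.91 and 1.14 in male Het and 1.63, 2.12 and 1.26 in male KO. Het and KO overlapped in both sexes, with log2 differences of 0.35 ± 0.292 in females and -0.27 ± 0.418 in males, and the male sign turned to 0.12 without the male library Hetz204. In the KO libraries males held 2.25-fold less Ryr1 than females (log2 difference -1.17 ± 0.358, adjusted p = 0.0281, edgeR), with no overlap. That call was lost in 5 of 10 alternatives, each of which left out 1 KO library, where the adjusted p reached up to 0.0979. In Het the difference was -0.54 (95% interval -1.28 to 0.20, adjusted p = 0.359, edgeR).

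Ryr2, the channel of heart muscle, did not pass the filter on low counts, with 0 to 3 counts per library and 0 in each male KO library. No fold is given for it. As a share of the summed ryanodine receptor level per kilobase, Ryr3 made up 68.2 ± 8.32% in female Het, 40.9 ± 4.65% in female KO, 91.6 ± 4.19% in male Het and 86.2 ± 3.43% in male KO. Ryr1 took the rest apart from at most 1.46% of Ryr2 in any library, and it was the larger share only in the female KO group, at 58.3 ± 4.56%. The summed level fell with Ryr3, from 0.433 to 0.296 CPM per kb in females and from 1.17 to 0.555 in males.

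**Figure D2:**
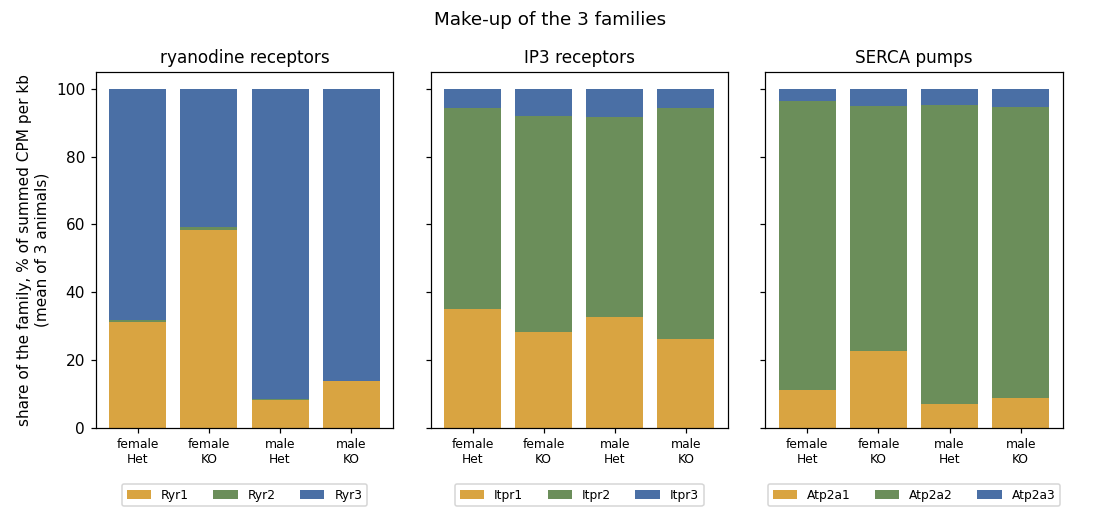
Share of each isoform in the summed CPM per kb of exon of its family (vertical axis, percent, mean of 3 animals) in the 4 groups, for ryanodine receptors, IP3 receptors and SERCA pumps including Atp2a3. Ryr1 is the larger share of its family in female KO alone, while Itpr2 and Atp2a2 lead theirs in each group.

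Among the IP3 receptors, Itpr2, a widely expressed isoform of high IP3 affinity (chromosome 6, 146108299 to 146502223), was the main one, with 59.4, 63.8, 59.3 and 68.2% of the family in female Het, female KO, male Het and male KO. Its levels were 45.4, 45.9 and 56.5 CPM in female Het and 59.2, 50.8 and 55.5 in female KO, which overlapped. In males they were 68.1, 64.8 and 61.6 CPM in Het and 92.1, 89.8 and 74.4 in KO, and each KO library lay above each Het library. The log2 differences were 0.16 ± 0.143 in females and 0.40 ± 0.130 in males, neither among the genes that passed the threshold. Itpr2 was higher in males than in females, by 1.55-fold in KO (log2 0.63 ± 0.134, adjusted p = 0.00342, edgeR; past the threshold in 10 of 10 alternatives), whereas the 1.32-fold of Het missed it (adjusted p = 0.0682, edgeR, past in 2 of 10), with no overlap of the libraries in either.

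Itpr1, the isoform best known from Purkinje neurons (chromosome 6, 108213096 to 108551109), lay at 30.9, 40.3 and 36.8 CPM in female Het and 30.5, 30.8 and 28.9 in female KO. The male libraries held 45.3, 41.6 and 45.2 CPM in Het and 40.9, 37.3 and 42.6 in KO. KO lay below Het by log2 estimates of -0.26 ± 0.152 in females, where the groups only just did not overlap, and -0.13 ± 0.133 in males, where they did overlap. Males held 1.34-fold more Itpr1 than females in KO (adjusted p = 0.0333, edgeR), a call kept in 4 of 10 alternatives, and 1.22-fold more in Het (adjusted p = 0.18, edgeR).

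Itpr3, an isoform typical of secretory epithelia (chromosome 17, 27057304 to 27122223), was a minor transcript, with 5.51 to 8.19% of the family as group means. It stood at 2.88, 3.10 and 2.28 CPM in female Het, 3.16, 4.23 and 5.23 in female KO, 6.17, 4.50 and 5.74 in male Het and 2.84, 3.63 and 6.32 in male KO. Its estimates pointed in opposite directions in the sexes, 0.60 ± 0.286 in females without overlap and -0.35 ± 0.308 in males with overlap. The difference between those changes was -0.96 on the log2 scale (95% interval -1.86 to -0.06, unadjusted p = 0.0379, adjusted p = 0.379, edgeR), which fails the correction. Male Het exceeded female Het 1.98-fold (adjusted p = 0.0475, edgeR), but 8 of 10 alternatives lost this call, and in KO the difference was 0.03 with an interval from -0.61 to 0.66.

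The SERCA pumps were led by Atp2a2 (chromosome 5, 122453513 to 122502225), which supplied 72.5 to 88.5% of the pump transcripts per length as group means. Its values were 371, 297 and 396 CPM in female Het, 278, 285 and 319 in female KO, 307, 303 and 353 in male Het and 304, 324 and 242 in male KO. All groups overlapped with their counterparts. The log2 differences of KO from Het were -0.27 ± 0.146 in females and -0.14 ± 0.138 in males, and those of males from females were -0.14 in Het (95% interval -0.45 to 0.16) and -0.02 in KO (-0.32 to 0.28), both short of the threshold (adjusted p = 0.575 and 0.947, edgeR).

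Atp2a1, the pump of fast myofibres (chromosome 7, 126445858 to 126463108), spread more widely over the 3 female KO libraries than over those of its other groups. It stood at 17.4, 29.8 and 31.4 CPM in female Het, 90.4, 30.5 and 43.0 in female KO, 14.3, 14.2 and 13.9 in male Het and 20, 13.6 and 17.3 in male KO. The female KO estimate of 1.06 ± 0.414 on the log2 scale rested largely on the library KO166, and was 0.49 without it, while the male estimate was 0.27 ± 0.182. In KO, males held 3.22-fold less Atp2a1 than females (log2 -1.69 ± 0.337, adjusted p = 0.00372, edgeR), with no overlap, in 10 of 10 alternatives and with folds of 2.17 to 3.94, the lowest without KO166. In Het the male level was 1.85-fold lower without overlap (adjusted p = 0.115, edgeR, past in 2 of 10). Exons of Rabep2 cover 21.9% of the exonic bases of Atp2a1 and strand was not used in counting. The level of Atp2a1 is therefore uncertain, by an amount that the share of bases does not give.

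Transcripts of myofibres moved with Atp2a1. The sum of 15 myofibre markers, among them skeletal actin (Acta1) and fast myosins, was 151 to 451 CPM in Het females, 164.3 to 798 in KO females, 73.0 to 101 in male Het and 81.1 to 192 in male KO, with the highest value in KO166. Of these markers Tnnc2 was at 0 in male Het and Myh7 at 0 in male KO. Over the 12 libraries log2(CPM + 1) of Atp2a1 followed this sum with Pearson's r = 0.931 and Spearman's rho = 0.944 (permutation test, two-sided, p = 6e-05, adjusted p = 0.00048 for both). That test shuffled all libraries freely, although they came from 4 groups in separate tables for the sexes. Its p therefore cannot separate a link between single libraries from a difference between groups. Pearson's r was 0.906 without the 2 libraries farthest from the median (the female Hetz181 and KO166; adjusted p = 0.00512, permutation test), 0.861 within the female table and 0.875 within the male table (exact permutation tests over 6 libraries, adjusted p = 0.156 and 0.55).

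Of the other genes in this family of 8 correlations, Ryr1 and Ryr3 passed the adjusted threshold by both measures and Itpr1 by Spearman's rho alone (r = -0.619, rho = -0.713, permutation p = 0.0381 and 0.0122, adjusted p = 0.061 and 0.0324). Within the tables r of Itpr1 was 0.03 and -0.23, and without the 2 farthest libraries it was -0.626 (adjusted p = 0.156, permutation test). Ryr1 gave r = 0.713 and rho = 0.685 (permutation p = 0.00758 and 0.0171, adjusted p = 0.0202 and 0.0342), with 0.681 within the female table, -0.08 within the male table and 0.582 without the 2 farthest libraries (adjusted p = 0.156, permutation test), where the call was lost with 10 libraries left. Ryr3 gave r = -0.756 and rho = -0.790 (permutation p = 0.00458 and 0.00318, adjusted p = 0.0183 and 0.0127), but only -0.331 and -0.385 within the tables (exact permutation, adjusted p = 0.874 and 0.632) and -0.749 without the 2 farthest (adjusted p = 0.0618, permutation test), so it did not hold within tables. For Panx1 r was 0.405 (permutation p = 0.189, adjusted p = 0.253), and for Atp2a2 it was 0.06 (permutation p = 0.854, adjusted p = 0.854). The values of Ryr3 and Panx1 hold the KO differences that chose these genes, so their p-values here are no support. The part of myofibre RNA in the sex difference of Atp2a1 was not tested.

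**Figure D3:**
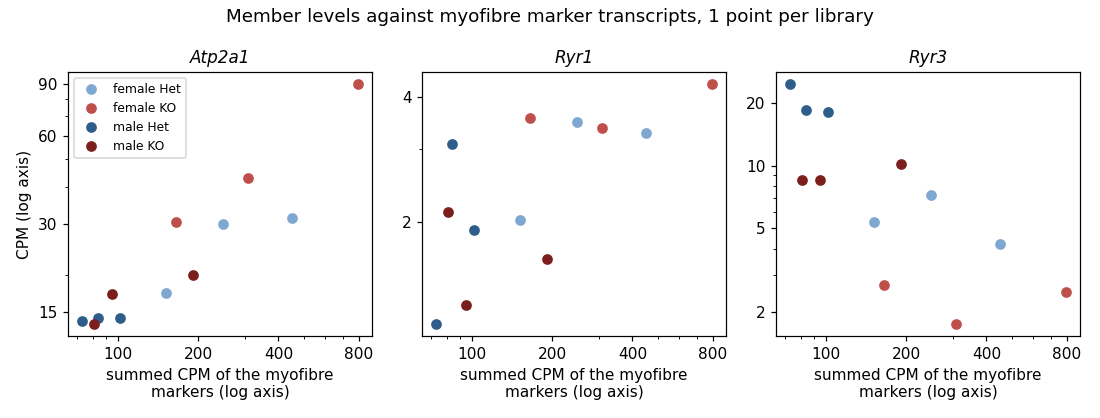
CPM of Atp2a1, Ryr1 and Ryr3 (vertical log axes) against the summed CPM of the 15 myofibre markers (horizontal log axes), 1 point per library, coloured by group. Atp2a1 climbs with the marker sum across both sexes up to the female KO library at 798 CPM, while Ryr3 separates by sex and genotype.

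Panx1, the pannexin of most tissues (chromosome 9, 15002128 to 15045478, minus strand), showed the widest KO difference of the 8 genes that could be compared. It stood at 6.51, 18.4 and 14.8 CPM in female Het and at 46.6, 59.7 and 50.4 CPM in female KO. The male values were 9.66, 9.45 and 7.04 CPM in Het and 39.3, 29.9 and 41.3 CPM in KO. No KO library of either sex came down to the highest Het library. The log2 estimates were 1.97 ± 0.307 in females and 2.09 ± 0.191 in males, that is 3.92-fold and 4.25-fold, and again these values chose the gene. Their difference was 0.11 with a 95% interval from -0.70 to 0.91. The relatives Panx2 and Panx3 did not pass the filter, Panx3 without a count in any library and Panx2 with counts in female KO only.

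Between the sexes Panx1 was lower in males by estimates of -0.61 ± 0.279 in Het (adjusted p = 0.186, edgeR) and -0.50 ± 0.261 in KO (adjusted p = 0.189, edgeR), neither past the threshold. The Het difference passed in 2 of 10 alternatives and the KO one in 1 of 10. In KO each male library lay below each female library, whereas the Het libraries overlapped. The Het value turned on the female library Hetz164, whose 6.51 CPM lay below all male Het libraries. Without it the difference was -0.95 and passed (adjusted p = 0.0109, edgeR). Markers of leukocytes, summed over 8 genes, were 87.9 to 127.5 CPM in Het females and 37.6 to 58.7 in KO females. In males they were 29.7 to 98.9 CPM in Het and 58.7 to 73.8 in KO, which overlapped. The satellite cell sum was lower in female KO as well, and the myofibre sums of female Het and KO overlapped. The part of these sums in the Panx1 values was not tested.

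The sequence before the start of Panx1 is shown because its KO difference was the widest of the genes compared. The 250 bases upstream of the RefSeq start site (GRCm38.p6, chr9:15045479-15045728, minus strand, 5′ to 3′) were searched on both strands for the core of the antioxidant response element bound by NRF2 (TGACNNNGC), the AP-1 site (TGANTCA) and the E-box of myogenic factors (CANNTG), and are printed without capitals since none of the motifs was found in them.
Panx1: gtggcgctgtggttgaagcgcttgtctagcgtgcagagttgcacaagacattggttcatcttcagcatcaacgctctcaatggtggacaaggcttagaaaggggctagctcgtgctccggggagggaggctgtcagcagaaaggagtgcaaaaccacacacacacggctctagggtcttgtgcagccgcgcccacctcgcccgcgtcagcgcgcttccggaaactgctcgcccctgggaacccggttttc
Over all 32851 windows of this length the motifs occurred in 10.2, 6.75 and 66.2%. The absence says only that these letters are not in this window. Promoters of 6 of the 9 genes were in the RefSeq table. Among these 6 the E-box letters were found upstream of Ryr2, Itpr3 and Atp2a1, and none of the 6 held either of the other motifs.

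Panx1 lies on the same chromosome as Keap1, 6.18 Mb away, so genes near Keap1 were looked at in the same way. Of 107 tested genes within 10 Mb of Keap1, females had 0 higher and 2 lower in KO (Maml2 and Bmper, edgeR, adjusted p under 0.05). Of 100 in males 1 was higher (Tmem205) and 0 were lower, with Panx1 and Keap1 left out of these counts. That is 1.87% in females beside 2.27% of all genes, and 1% in males beside 0.861%. The 3 nearest tested genes on each side of Panx1 had log2 differences from -0.31 to -0.01 in females and from -0.77 to 0.07 in males, none past the threshold.

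Counted together, 8 of the 9 genes passed the filter on low counts. In KO against Het, 1 was past the threshold upward (Panx1) and 1 downward (Ryr3) in each sex, beside 2.27% of 14036 genes tested in females (1.29% higher, 0.983% lower) and 0.861% of 13361 in males (0.704% higher, 0.157% lower), and since this contrast chose the genes nothing is read from it. Over the alternatives the log2 estimates ran from -1.47 to -1.06 in females and -1.27 to -1.02 in males for Ryr3, and from 1.64 to 2.29 and 1.94 to 2.22 for Panx1. As a limit of these counts, the female Ryr3 call was lost with limma voom and without Hetz164, Hetz165 or any of the 3 KO libraries. The male one was lost without Hetz249, and the female Panx1 call without Hetz181. A call that held is no support either, since the same contrast chose the genes. Groups did not overlap for 4 of the 8 genes in females, beside 22.3% of all genes, and for 3 in males, beside 17.2%. The median log2 difference of the 8 genes was 0.26 in females and -0.13 in males, beside 0.00 and 0.01 over all genes.

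**Figure D4:**
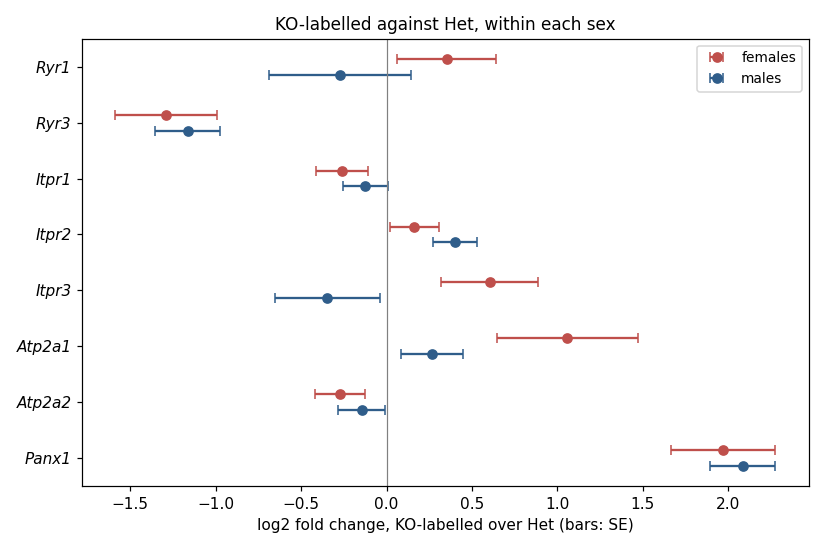
Log2 fold change of KO over Het (horizontal axis, points) with its SE (bars) for the 8 genes tested, in females and males. Ryr3 near -1.2 and Panx1 near 2 stand at the ends in both sexes, and Itpr3 lies on opposite sides of 0.

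Between the sexes 2 of the 8 genes were higher in males in Het (Ryr3 and Itpr3) and 0 were lower, beside 10.2% of 14772 genes past the threshold (5.44% higher, 4.72% lower). In KO 3 were higher (Ryr3, Itpr1 and Itpr2) and 2 lower (Ryr1 and Atp2a1), beside 20.4% (11.1% higher, 9.31% lower). The groups did not overlap for 5 of 8 in Het and 6 of 8 in KO, beside 29.1 and 38.0% of all genes. The median log2 difference of the 8 genes was 0.07 in Het and 0.00 in KO, beside -0.00 and -0.01 over all genes. Markers of cell types differed between the sexes as well. All 6 endothelial markers were higher in males in both genotypes, with sums of 155 to 173 CPM in male Het against 55.7 to 60.3 in female Het and 100.4 to 243 in male KO against 41.4 to 74.5 in female KO. Of 7 markers of fibro-adipogenic progenitors, 3 were lower in male Het, and 2 were higher and 2 lower in male KO. Of 5 tenocyte markers 3 were higher in male Het and 2 in male KO. Of 12 satellite cell markers 1 and 8 were higher, with 0 and 1 lower. Of 12 tested myofibre markers 0 were higher, while 1 was lower in male Het and 4 in male KO. Of 6 Schwann cell markers 1 and 3 were higher, and of 5 red blood cell markers 1 and 2. Pericyte markers, 6 tested, had 2 higher and 1 lower in each genotype. Leukocyte markers, 6 tested, had 1 higher and 1 lower in male Het, and 1 higher in male KO. The part of these cell types in the sex differences of the calcium genes was not tested. For the difference of the KO changes, 0 of the 8 genes passed with edgeR or limma voom, beside 0.00677% of all genes with edgeR, and 0 of the 6 to which DESeq2 gave an adjusted p. At an unadjusted p under 0.05 edgeR had 1 of the 8, Itpr3, beside 12.4% of all genes.

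**Figure D5:**
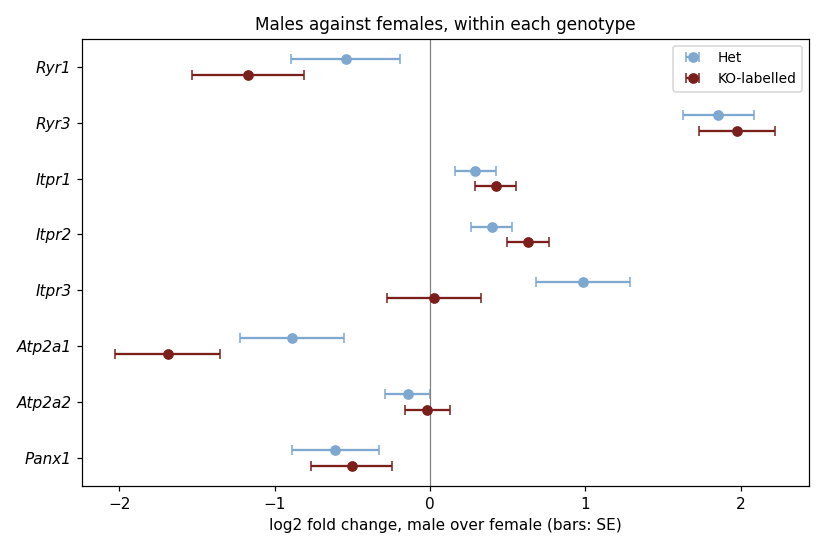
Log2 fold change of males over females (horizontal axis, points) with its SE (bars) in Het and in KO. Ryr3 lies near 2 in both genotypes, Atp2a1 and Ryr1 lie below 0, and Atp2a2 lies close to 0.

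The other genes of calcium handling were followed through 8 lists of 141 genes in all: luminal calcium proteins and SERCA regulators, the ryanodine receptor complex and triad, IP3 production, calcium entry, calcium export, mitochondrial uptake, pannexins, connexins and purinergic signalling, and calcium-dependent kinases, phosphatases and proteases. In females 1 of 114 tested rose in KO and 0 fell, 0.877% beside the 2.27% of all genes. The gene was Vdac1, which encodes a channel of the outer mitochondrial membrane, at 78.8, 86.9 and 65.9 CPM in Het and 118, 122 and 136 in KO (1.62-fold, adjusted p = 0.0247, edgeR), higher in 3 of 3 libraries. DESeq2 also called Calm2, a calmodulin gene, lower in females (log2 -0.76, adjusted p = 0.0145). Of 98 listed genes with an adjusted p from DESeq2, 1 was higher and 1 lower, beside 726 of all 14033 genes tested with it. In males 0 of 111 passed with edgeR or limma voom, beside 0.861% of all genes with edgeR, and 15 had an unadjusted p under 0.05 with edgeR, beside 12.4% of all genes. DESeq2 called Gja1, a connexin, higher (log2 0.56, adjusted p = 0.0218) and Piezo1, a mechanosensitive channel, lower (log2 -0.59, adjusted p = 0.0451). Those were its only calls among 89 listed genes with an adjusted p, beside 276 of all 13360 genes tested with it. For the difference between the sexes 0 of 119 passed with edgeR or limma voom. At an unadjusted p under 0.05 edgeR had 17, beside 12.4% of all genes. DESeq2 called Calm2 alone (adjusted p = 0.0352) among 78 listed genes with an adjusted p, beside 225 of all 14770 genes tested with it. The totals given for all genes with DESeq2 also count genes without an adjusted p, so those shares and the shares of the lists have unlike bases. The median log2 difference over the lists was 0.04 in females and 0.11 in males.

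Between the sexes 5 of 119 listed genes were higher and 11 lower in male Het (13.4% against 10.2% of all genes), and 18 were higher and 19 lower in male KO (31.1% against 20.4%). The 5 higher in male Het, named after their values were seen, were Tmem38b, Plcd3, Gja4, Entpd1 and Rcan2. Tmem38b encodes TRIC-B, a potassium channel that balances charge when calcium leaves the store, and it was 1.33-fold higher in males in Het (52.7 ± 2.61 against 70.2 ± 2.60 CPM, adjusted p = 0.0312, edgeR). The 11 lower ones, also named after their values were seen, were Casq1, Srl, Cacng1, Trdn, Jph2, Erp44, Trpm7, Mcub, Gjc1, P2ry14 and Ppp3r1. By list, 1 of 19 tested genes of the ryanodine receptor complex and triad was higher and 3 were lower in male Het, and 0 of 14 luminal proteins and SERCA regulators were higher and 2 lower. Cacng1, a subunit of the voltage sensor, had 4.08 ± 1.59 CPM in female and 0.742 ± 0.233 in male Het (adjusted p = 0.0006, edgeR), beside the lower myofibre sum of male libraries given above. The part of that sum was not tested.

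The genes whose levels followed Ryr3 most closely over the 12 libraries, among 11111 compared by Pearson's r of log2(CPM + 1), were Csdc2 (r = 0.977), Lmcd1 (0.973), Erfe (0.969), Kcnma1 (0.964) and Tmem38b (0.959). Erfe, which encodes the hormone erythroferrone, had group means of 559.7 CPM in female Het, 340 in female KO, 1716 in male Het and 969 in male KO, the same order as Ryr3. Kcnma1, a potassium channel opened by calcium and voltage, had 5.37, 2.82, 12.6 and 7.95 CPM in the same groups. Among those closest to Panx1 were Slc25a37 (r = 0.958), Pla2g7 (0.955), Scara5 (0.950) and Nrxn2 (0.946). Pla2g7, which encodes a secreted phospholipase that breaks down platelet-activating factor, had 2.89, 37.2, 1.31 and 17.5 CPM, and Scara5, a ferritin receptor, 35.1, 90.1, 31.9 and 87.9 CPM, in female Het, female KO, male Het and male KO. These likenesses carry both the genotype and the sex differences of the libraries and are descriptions.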

How the data were processed

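Satellite cell RNA was measured in 12 libraries, 3 in each of 4 groups taken from the labels. Each library carries a number of its own in its title, read here as the animal, so nothing pairs libraries. The edgeR p-values set a difference between groups against the spread between animals within the groups. For the sexes they do not cover what else differed between the female and male tables. Per the labels' protocols, cDNA was made by Smart-Seq2, without molecular identifiers, and libraries with Tn5. The deposited tables hold 1 whole number per gene and library, fragment counts over exons made with featureCounts 2.0.0 (Ensembl GRCm38, release 99) without strand, per the file headers. None of the deposited numbers is an estimated count, and none needed rounding. STAR, Subread, DESeq2 and mm10 are named per the submitters' processing notes. Females and males are separate deposited tables.

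CPM were computed from these counts with TMM factors over 12 libraries, and divided by the kilobases of the exon union for levels between genes. Of 55385 genes, 55144 matched a symbol in GENCODE M21. Tests used edgeR 4.0.16 in R 4.3.3 (glmQLFit robust, filterByExpr with a minimum count of 10, Benjamini-Hochberg over all genes tested, threshold 0.05, no fold threshold), on 6 libraries within a sex and on all 12, as 4 group means, for the sexes and the difference. Intervals are 95%. Correlations used scipy 1.17.1, with 100000 resamples that ignored the groups and tables, or all orders within a table. Alternatives were RLE size factors, DESeq2 1.42.0, limma 3.58.1 voom, no filter, joint fits and leaving out each library, and the fits were tested on simulated data. The members and lists were chosen with earlier results of these data known. Named genes are the members, Keap1, Nfe2l2, listed genes past the threshold within a sex and the 5 most alike to Ryr3 and Panx1, of which 1 is not reported here. The marker lists covered satellite cells, myofibres, endothelium, fibro-adipogenic progenitors, leukocytes, pericytes, Schwann cells, tenocytes and red blood cells. Summed over the 4 groups' libraries, the lists not given above lay at 172 to 476 CPM for pericytes and smooth muscle, 39.2 to 92.6 for Schwann cells, 41.0 to 136 for tenocytes and 5.90 to 78.9 for red blood cells.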

Additional observations from a re-analysis of the deposited data

How the results depend on the processing

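Counts of all genes past the threshold moved with the method. With DESeq2 and without the filter on low counts they were 726 and 1000 in females (319 in the analysis reported), 276 and 375 in males (115), 837 and 858 for the average over the sexes (504), and 225 and 358 for the difference of the KO change (1). Leaving out 1 library gave 144 to 1479 in females, the most without Hetz165, 41 to 294 in males, 318 to 931 for the average, 0 to 206 for the difference, 668 to 1572 for the sexes in Het (1501; 668 without male Hetz204, 763 without male Hetz249) and 2001 to 2578 in KO (3016; 2001 without female KO166). With 1 library left out an arm keeps 2. Of the correlations with myofibre markers, 3 passed by Pearson's r over 12 libraries, 1 without the 2 farthest libraries and 0 within either table. The r of Ryr1 was -0.0825 in the male table. Near Keap1, a window of 5 Mb held 1 called gene in females (1.37%, beside 2.27% of all genes). A window of 20 Mb held 2 in males (1.23%, beside 0.861%). The members' log2 estimates kept their sign in all alternatives of the KO comparison within a sex except Ryr1 in males. With the longest transcript in place of the exon union, Panx1 and Itpr2 changed places in the order of levels. Ryr1 and Itpr3 rest on 19 to 101 counts per library, Ryr3 on 31 to 150 in the female libraries, and Ryr2 on at most 3. Smaller differences were thus not detectable for these genes. No paired analysis was possible because each animal number in the labels belongs to 1 library only. The cause of these shifts was not tested.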
